A study of Homo sapiens with 12 samples.

Results

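Immunophilins are the FKBP and cyclophilin families of peptidyl-prolyl isomerases, named here as 31 listed genes, 15 FKBP and 16 cyclophilin genes, out of 19775 genes with a probe set of their own on the array. The genes were taken by name as members of these families, in a choice made with earlier results of these data known. Each was represented by its brightest probe set, by mean over all 12 arrays, among probe sets assigned to that gene alone, and all 31 had one. Of these, 28 were tested, 13 FKBP and 15 cyclophilin genes, and each of the 28 reached a log2 value of 4, the level set for testing, on all 12 arrays.

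Prolyl isomerases turn the peptide bond before a proline between its cis and trans forms, a slow step in the folding of many proteins. FKBPs and cyclophilins share this activity without sharing a fold. Tacrolimus and rapamycin bind FKBPs, cyclosporin A binds cyclophilins, and the complexes of tacrolimus and of cyclosporin A inhibit the phosphatase calcineurin. Calcineurin inhibitors are known for their toxicity to the kidney tubule. Members differ in where they work: free in the cytosol, bound to HSP90 by a tetratricopeptide (TPR) domain, in the endoplasmic reticulum (ER), in the mitochondrial matrix, or in the spliceosome.

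Total RNA of HK-2 cells, an immortalized human proximal tubular epithelial line, was measured on Affymetrix arrays in 4 groups of 3 arrays. The groups were cultures treated with Fk for 12 h, with Fk for 48 h, and with the control vehicle for 12 h or 48 h. All 4 groups were grown in the same mixture of DMEM and Ham medium, listed with EGF, insulin, transferrin, selenite and hydrocortisone, a glucocorticoid, and were near confluence when treated. The labels do not expand the name Fk, the dose was not used here, and all arrays come from 1 cell line. The arrays of a group are called biological replicates, without saying that they came from separate cultures, so p-values measure the spread between these arrays. The comparisons ask what Fk did to these genes at each time and how the control cultures differed between the times.

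Values are log2 GCRMA values as deposited, so a difference of 1 is a doubling. The median of an array ran from 2.85 to 2.94. All 5 markers of simple epithelium checked, such as KRT18 and EPCAM, reached the level of 4 on all 12 arrays. Of 10 proximal tubule markers, 1 (DPP4) did so and 7 reached it on 0 arrays, among them the endocytic receptor genes LRP2 and CUBN and the transporter genes AQP1 and SLC34A1. AQP2 of the collecting duct reached it on all 12, at a mean of 4.23, and the endothelial PECAM1 on 6. The leukocyte markers PTPRC, CD3E and CD14 reached it on 0 arrays. VIM and COL1A1, of 4 mesenchymal markers, reached it on all 12, and COL1A2 and PDGFRB on 0.

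Of the listed genes, 3 were not measured above the level set for testing. FKBP1B, whose product sits on the cardiac ryanodine receptor, had a mean of 2.76 and reached 4 on 0 arrays. FKBP6, a germ cell FKBP, had a mean of 2.41 and PPIL6 a mean of 2.97, and neither reached 4 on any array. These values show only that the probe sets were dim. The brightness of probe sets differs between genes for reasons of sequence, so levels are compared below only between arrays and never between genes.

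Replicate 3 of the Fk group at 12 h stood apart: it correlated with the other 2 arrays of its group at 0.942 and 0.946 over all genes tested, while these correlated with each other at 0.994. The nuclear cyclophilins moved with it: all 10 of the 10 tested were higher on replicate 3 than the mean of replicates 1 and 2, by 0.20 to 1.26 (median 0.56), against 51.1% of all genes. NKTR, an RS-domain cyclophilin of nuclear speckles, read 9.29 and 9.21 on replicates 1 and 2 and 10.51 on replicate 3. FKBP7 deviated by 1.29, PPIL3 by 1.15, FKBP1A by -0.57 and FKBP14 by -0.72. Deviations over 1 log2 unit were found for 3 of 28 members (10.7%) and for 15.4% of all genes. The median Fk difference at 12 h was 0.03 over the 28 genes with this array and -0.02 without it. Over the 10 nuclear cyclophilins it was 0.03, with 6 of 10 positive, and without the array -0.20, with 3 of 10 positive. PPIE went from -0.15 to -0.37, PPIG from -0.10 to -0.29, PPWD1 from 0.03 to -0.11, FKBP5 from -0.06 to -0.17 and FKBP14 from -0.17 to 0.07 when the array was left out, and none of the 28 was called.

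**Figure D1:**
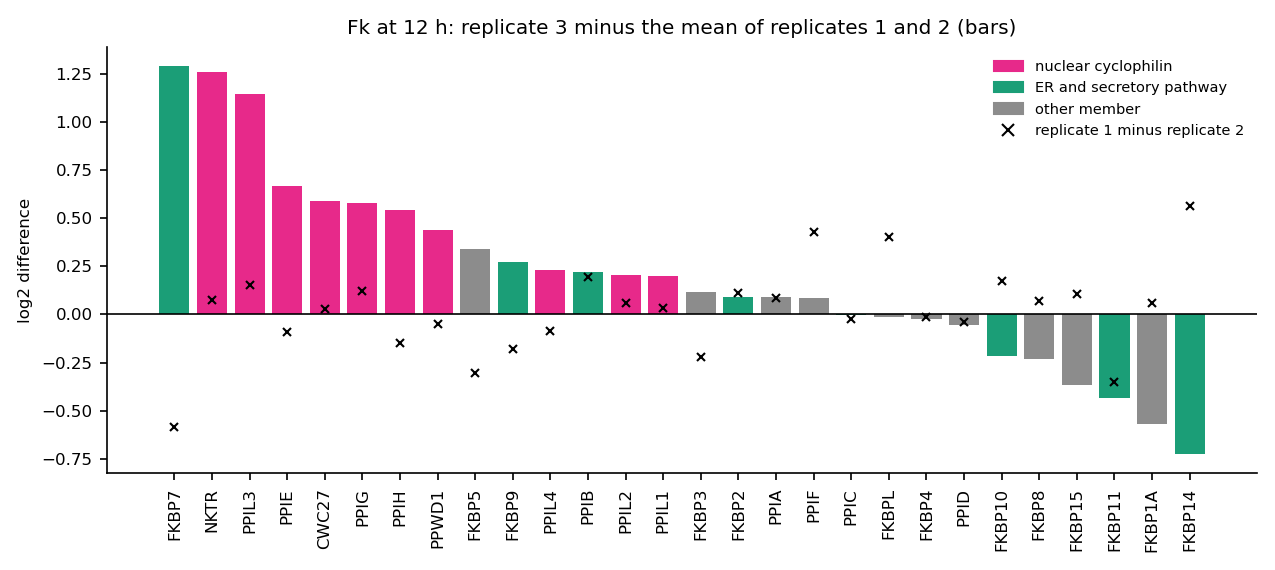
Deviation of Fk replicate 3 at 12 h from the mean of replicates 1 and 2 (bars, log2 difference) for the 28 immunophilin genes tested, with the difference between replicates 1 and 2 as crosses. All 10 nuclear cyclophilins lie above 0, from 0.20 to 1.26, while the ER members lie on both sides, from -0.72 to 1.29.

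Fk changed none of the 28 genes past the threshold at either time. In whole cultures, fewer cells of a kind and less RNA per cell cannot be told apart. At 12 h, 0 of 28 passed an adjusted p of 0.05 in limma, against a background of 0% of 10784 genes, and 0 passed an unadjusted p of 0.05, against 6.71% of all genes. At 48 h again 0 of 28 passed, background 0%, and 2 (FKBP10 and FKBPL) had an unadjusted p under 0.05, against 5.18%. The unadjusted counts moved with the fit. At 12 h they were 3 with only the groups compared, 4 with the replicate number as a block and 7 with array weights. At 48 h they were 0 with only the groups compared and 2 with the block. The shares of all genes in those fits are not given here. The median log2 difference over the 28 genes was 0.03 at 12 h and 0.02 at 48 h, and over all genes tested it was 0.01 and 0.02. Positive differences numbered 16 of 28 at 12 h (background 53.2%) and 15 of 28 at 48 h (background 53.8%).

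Both families spread around 0. Differences of the 13 FKBP genes ran from -0.24 to 0.70 at 12 h and from -0.50 to 0.47 at 48 h, with medians of 0.00 and -0.01. Those of the 15 cyclophilin genes ran from -0.24 to 0.39 and from -0.22 to 0.23, with medians of 0.03 and 0.02. Without Fk replicate 3 the medians at 12 h were 0.07 for the FKBP genes, 8 of 13 positive, and -0.10 for the cyclophilin genes, 6 of 15 positive. Among the 8 ER members, 5 differences were positive at each time, with medians of 0.13 and 0.05, and without Fk replicate 3 6 of 8 at 12 h with a median of 0.20. A difference between the families was not tested.

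The intervals say how large an Fk effect is left room for by this fit, which does not pair arrays by replicate number. The 95% interval of limma lay within a 2-fold change in either direction for 24 of 28 genes at 12 h and 27 of 28 at 48 h, against 79.3% and 82.7% of all genes tested. It lay within a 1.5-fold change for 14 and 16 of 28, against 44.6% and 46.4% of all genes. The median half-width was 0.44 log2 units for these genes and 0.45 for all genes. When the effects at both times were averaged, the intervals of all 28 lay within 2-fold and those of 23 within 1.5-fold. Over all genes these shares were 93.0% and 68.6%. The averaged effect was called for 0 of 28 members, against a background of 0.00927% (1 gene, ZBED2); at an unadjusted p under 0.05 it was 1 of 28, FKBP10, against 7.94%. The difference between the effects at 48 h and 12 h was called for 0 of 28, background 0%, and 0 of 28 had an unadjusted p under 0.05, against 3.31%.

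**Figure D2:**
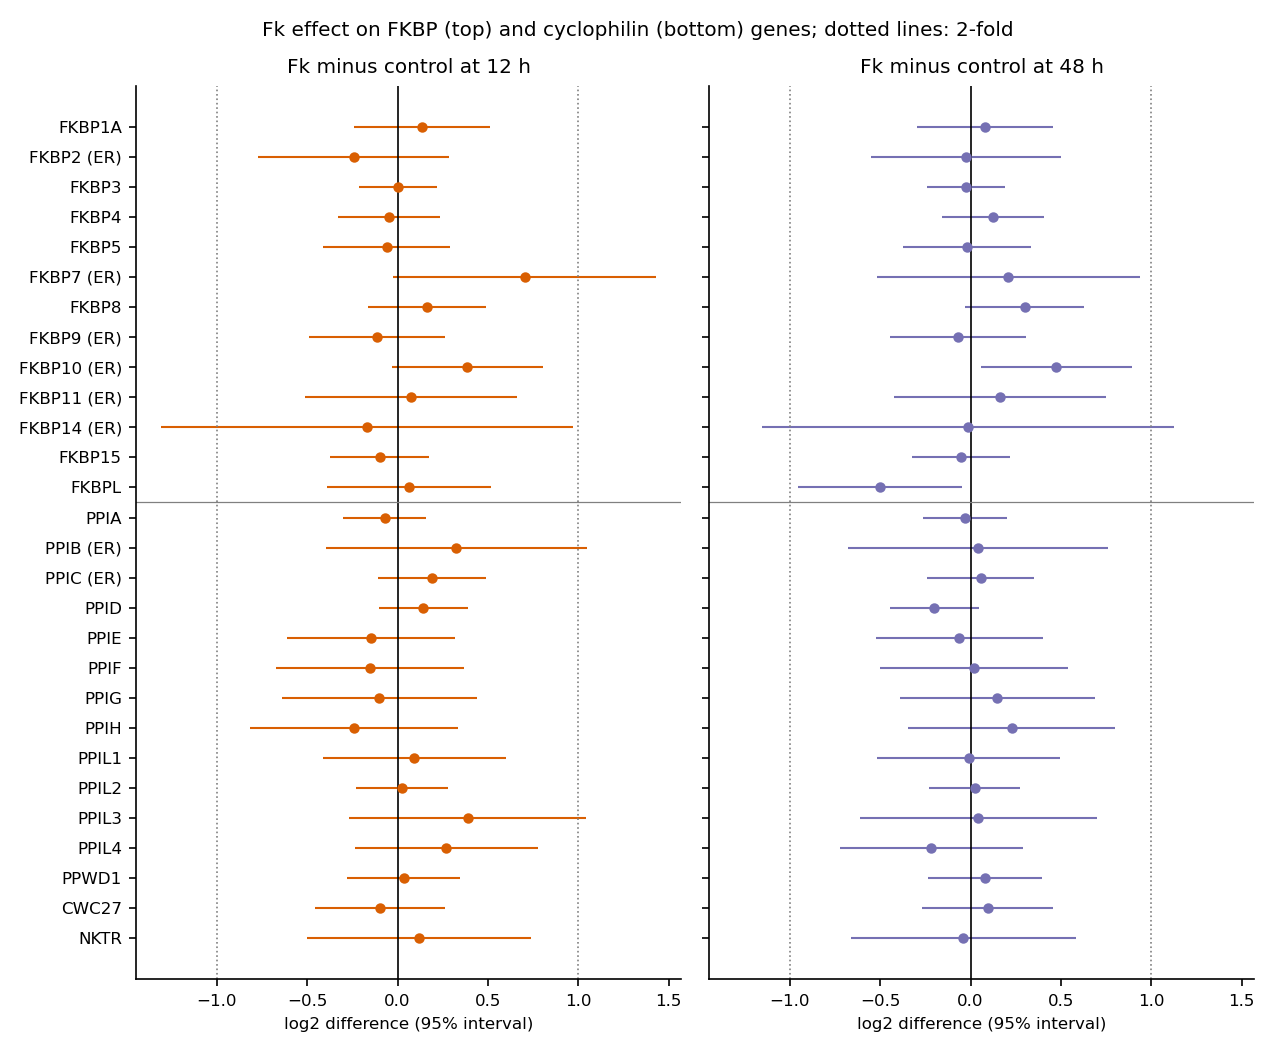
Log2 difference between Fk and control arrays at 12 h (left) and 48 h (right) for 13 FKBP genes (above the line) and 15 cyclophilin genes (below it), with the 95% interval of limma (3 arrays against 3); dotted lines mark a 2-fold change. Intervals stay within 2-fold for 24 of 28 genes at 12 h and 27 of 28 at 48 h, and FKBP10 and FKBPL at 48 h are the 2 whose intervals leave out 0.

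Array by array, the Fk and control values rarely separated. At 12 h all 3 Fk arrays lay above all 3 control arrays for FKBP10, PPIC, PPID and PPIL4 and below them for FKBP2 and PPIA, which is 21.4% of the 28 genes against a background of 16.4% (9.91% higher and 6.49% lower). At 48 h the arrays overlapped for all 28, against a background of 10.2% without overlap (6.14% higher and 4.02% lower). The control arrays at 48 h spread over a median range of 0.42 for these genes, while the median absolute Fk difference was 0.07. The Fk difference exceeded the range of the control arrays for 8 of 28 genes at 12 h (36.1% of all genes) and for 2 of 28 at 48 h (14.9%).

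FKBP4 and PPIH were called in limma between control times, PPIH narrowly (adjusted p = 0.0442). Control cultures at 48 h against 12 h had 2 of 28 immunophilin genes called, both lower, which is 7.14% against a background of 21.5% of all genes (10.6% higher and 10.9% lower). An unadjusted p under 0.05 was found for 8 of 28, against 36.4%. The differences were positive for 14 genes (51.5% of all genes) and negative for 14, and the median absolute difference was 0.34, as it was over all genes. The values of the control arrays did not overlap between the times for 15 of 28 genes, 5 higher and 10 lower at 48 h, against a background of 50% (25.1% and 24.9%). In both the control and the Fk arm, without overlap and in the same direction, FKBP4, FKBP5 and NKTR were lower and FKBP10 and PPIC higher, 5 of 28 (17.9%) against a background of 27.7%.

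**Figure D3:**
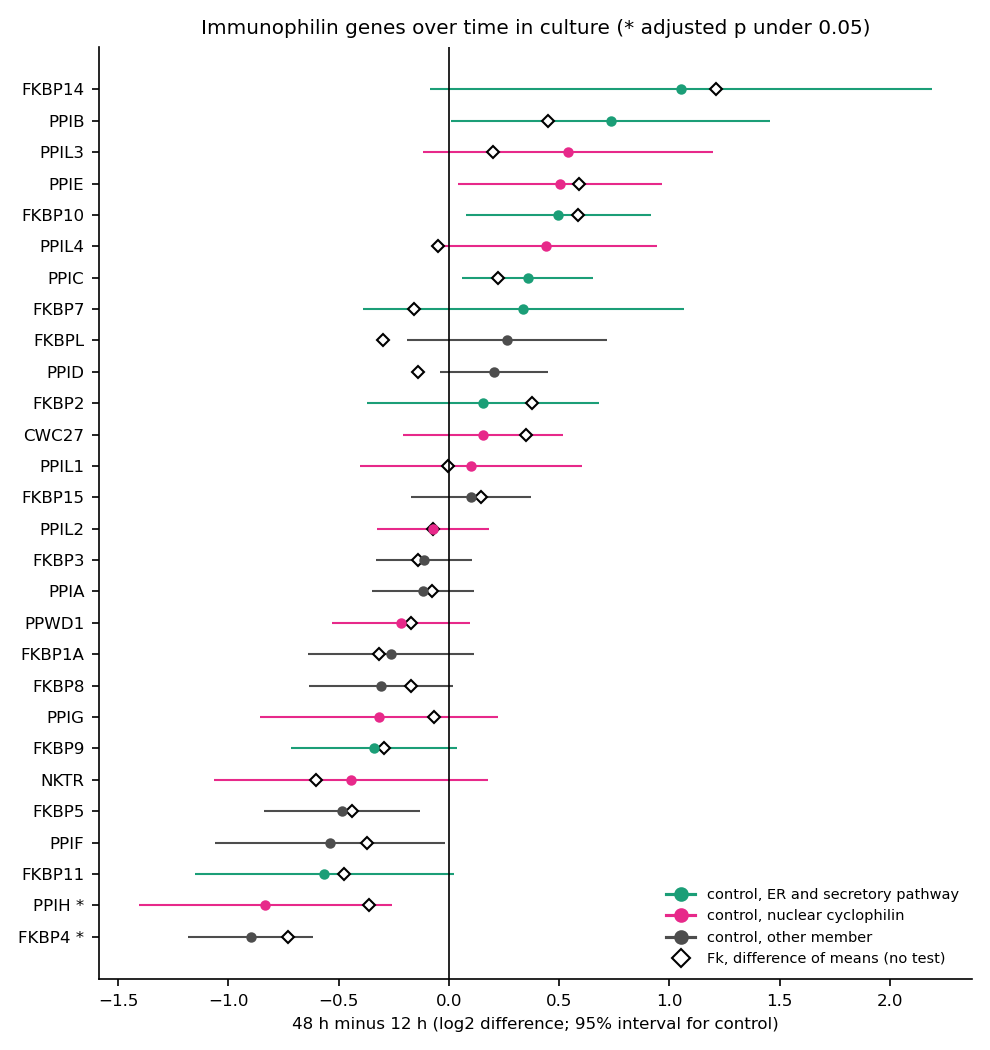
Difference between 48 h and 12 h in control cultures for the 28 immunophilin genes (dots with the 95% interval of limma, coloured by group), with the difference of the means in Fk cultures as diamonds. FKBP4 (-0.90) and PPIH (-0.83), marked with an asterisk, have an adjusted p under 0.05, and 6 of the 8 ER members lie above 0.

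FKBP1A and PPIA are the small cytosolic members and the main cellular receptors of tacrolimus and cyclosporin A. FKBP1A also caps the type I receptors of the TGF-beta family and the ryanodine receptors. It read 12.96, 13.17 and 12.96 on the control arrays at 12 h and 13.39, 13.33 and 12.79 on the Fk arrays. At 48 h it read 12.84, 12.67 and 12.79 on control and 13.07, 12.71 and 12.76 on Fk arrays. The groups overlapped at both times, and the Fk replicate that lay under the control values at 12 h was replicate 3.

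The Fk difference of FKBP1A was 0.14 ± 0.17 (SE, n = 3 arrays a group) at 12 h, with an interval from -0.24 to 0.51 and an adjusted p of 0.891. Without Fk replicate 3 it was 0.33 (interval 0.03 to 0.62), with an adjusted p of 0.593 and an unadjusted p of 0.0356. The difference at 48 h was 0.08, interval -0.30 to 0.46. Between the times, control arrays differed by -0.26 (adjusted p = 0.288) and Fk arrays by -0.32. The 3 other probe sets of FKBP1A differed at 12 h by -0.02 to 0.28 and at 48 h by 0.16 to 0.25. Between control times they differed by -0.52 to -0.38, and with the mean of all 4 probe sets FKBP1A was called there (-0.41, adjusted p = 0.0394).

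PPIA, cyclophilin A, was measured at the upper end of the arrays' scale. It read 14.99, 14.97 and 14.96 on control and 14.92, 14.83 and 14.96 on Fk arrays at 12 h, and 14.75, 14.87 and 14.96 against 14.74, 14.78 and 14.96 at 48 h. The highest Fk array and the lowest control array at 12 h were equal to 2 decimals, so PPIA counts among the genes without overlap only by the digits after them. The Fk and control arrays at 48 h overlapped. The differences were -0.07 ± 0.10 at 12 h (interval -0.30 to 0.16, adjusted p = 0.912) and -0.03 at 48 h (interval -0.26 to 0.20). Control arrays differed between the times by -0.12 (adjusted p = 0.453).

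PPIA has processed copies in the genome, so its probe sets may read more than 1 gene. Of 8 probe sets that name PPIA, 2 name it alone, and the others also name PPIAP34. The 5 bright probe sets differed at 12 h by -0.07 to -0.10, while a dimmer one (mean 10.44) differed by -0.42 at both times and by -0.71 between control times. Which of them follows the PPIA transcript was not tested.

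**Figure D4:**
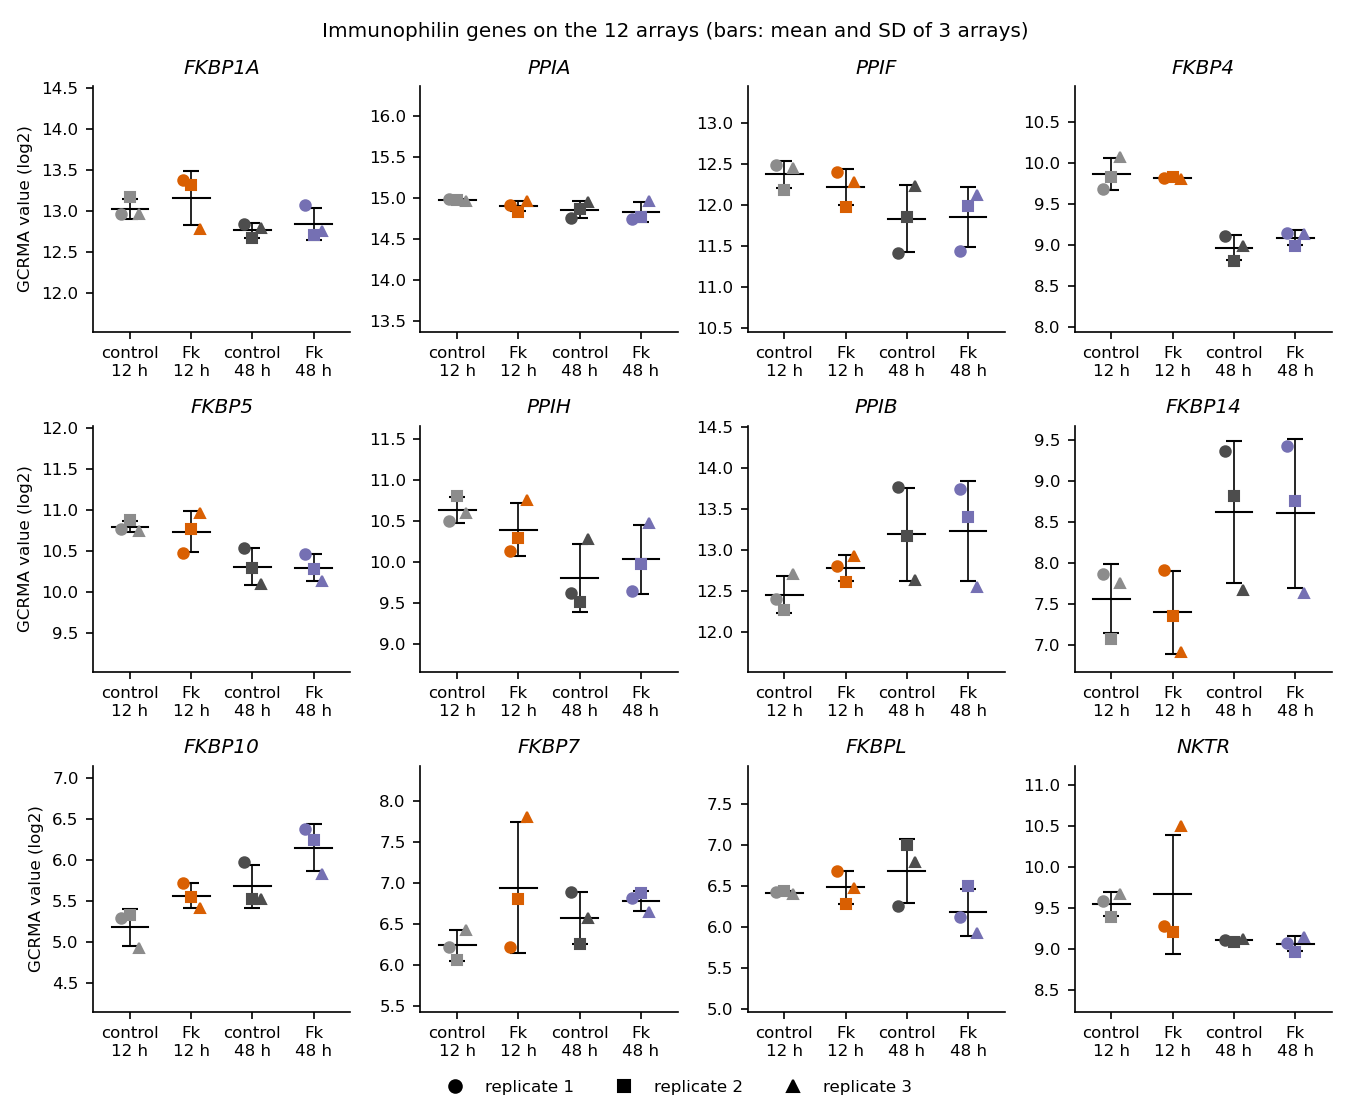
Log2 GCRMA values of 12 immunophilin genes on the 12 arrays, with the mean and SD of the 3 arrays of each group (bars) and a marker shape for each replicate number; each panel spans the same range of log2 units around its own values. FKBP4 and NKTR lie lower on all 6 arrays at 48 h than on all 6 at 12 h, the Fk and control arrays overlap in all panels at 48 h, and the lone high points of FKBP7 and NKTR are Fk replicate 3 at 12 h.

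The partners on which FKBP1A is known to sit showed no call for Fk either. Of 12 channel, receptor, calcineurin and kinase genes listed, 8 were tested, and the ryanodine receptor genes RYR1, RYR2 and RYR3 and the inositol trisphosphate receptor gene ITPR1 were not, at means of 2.06 to 3.35. At 12 h 2 of 8 differences were positive with a median of -0.09, and without Fk replicate 3, 6 of 8 with a median of 0.22. TGFBR1, a type I receptor, read 9.36, 9.60 and, on replicate 3, 7.71 on Fk arrays, and its difference turned from -0.19 to 0.40 without that array (adjusted p = 0.649). At 48 h 5 of 8 were positive with a median of 0.12. PPP3R1, the regulatory subunit of calcineurin, differed by 0.59 at 12 h (adjusted p = 0.8) and PPP3CA, a catalytic subunit, by 0.29 at 48 h. PPP3CB, the other catalytic subunit listed, was the 1 gene of this list called between control times, where it fell by 0.70 (adjusted p = 0.0272), and ACVR1, a type I receptor, differed by 1.06 (adjusted p = 0.0612). Without any 1 of the control arrays other than replicate 3 at 48 h, 0 of the 8 genes were called.

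FKBP4 had the smallest p of the 28 genes between control times. It encodes a TPR co-chaperone that rides with HSP90 on steroid receptors and favours their activity. Control arrays read 9.69, 9.83 and 10.08 at 12 h and 9.11, 8.80 and 8.99 at 48 h, and Fk arrays read 9.82, 9.83 and 9.80 at 12 h and 9.15, 8.99 and 9.13 at 48 h. All 6 arrays at 48 h lay below all 6 at 12 h, which held for FKBP4 and NKTR among the 28 genes and for 11.7% of all genes.

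In control cultures FKBP4 fell by 0.90 ± 0.13 between 12 h and 48 h (interval -1.18 to -0.62, adjusted p = 0.00187), so its linear signal fell by 46.4%. The Fk arm differed by -0.73. A second probe set above background gave -0.85 in the control arm. The call held without each array in turn, with differences of -0.99 to -0.79 and adjusted p-values up to 0.0105. With Fk the differences were -0.05 at 12 h (interval -0.33 to 0.24, adjusted p = 0.959) and 0.12 at 48 h (interval -0.16 to 0.41).

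FKBP5 encodes the TPR co-chaperone that restrains the glucocorticoid receptor and is itself a textbook target of that receptor. It read 10.77, 10.87 and 10.74 on control and 10.46, 10.77 and 10.95 on Fk arrays at 12 h, then 10.54, 10.29 and 10.09 on control and 10.46, 10.27 and 10.13 on Fk arrays at 48 h. Within each arm all arrays at 48 h lay below all at 12 h, narrowly in the Fk arm. The control difference was -0.49 ± 0.16 (interval -0.84 to -0.13), just short of the threshold at an adjusted p of 0.0534, which was 0.0291 without Fk replicate 3 at 12 h. Its 2 other probe sets gave -0.62 and -0.74. Fk differences were -0.06 at 12 h (interval -0.42 to 0.29, adjusted p = 0.957) and -0.02 at 48 h (interval -0.37 to 0.34).

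The other TPR members were not called in any comparison. FKBPL, an FKBP-like HSP90 partner of steroid receptor complexes, read 6.26, 7.01 and 6.80 on control and 6.13, 6.50 and 5.93 on Fk arrays at 48 h, which overlap. Its difference there was -0.50 ± 0.21 (interval -0.96 to -0.05, unadjusted p = 0.0335, adjusted p = 0.904), against 0.06 at 12 h, where control arrays read 6.41 to 6.44 and Fk arrays 6.29 to 6.69. The difference between these effects was -0.56 (unadjusted p = 0.0794, adjusted p = 0.996).

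FKBP8, an FKBP of the mitochondrial outer membrane that binds BCL2, read 5.95, 5.91 and 6.25 on control and 6.57, 6.11 and 6.31 on Fk arrays at 48 h. The difference was 0.30 ± 0.15 (interval -0.03 to 0.63, adjusted p = 0.992), and at 12 h it was 0.16. Averaged over both times it was 0.23 ± 0.10 (unadjusted p = 0.0508, adjusted p = 0.633).

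PPID, the TPR cyclophilin, separated at 12 h, with 10.78, 10.94 and 10.81 on control and 10.98, 11.02 and 10.95 on Fk arrays. At 48 h it read 10.87, 11.14 and 11.13 on control and 10.79, 10.94 and 10.81 on Fk arrays. The differences were 0.14 and -0.20, and PPID had the smallest p of the 28 genes for the difference between them (-0.34 ± 0.16, unadjusted p = 0.0514, adjusted p = 0.996).

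The chaperones and co-chaperones that the TPR members work with were measured beside FKBP4. Of 17 HSP90 system genes listed, 14 were tested, all 14 differed by less than 0 between control times (median -0.47), and 7 fell past the threshold, against 10.9% of all genes. DNAJA1, a co-chaperone of HSP70, fell by 1.12 (adjusted p = 0.000506). DNAJB1, another, fell by 1.03 (adjusted p = 0.00959). PTGES3, the p23 co-chaperone, fell by 0.61 (adjusted p = 0.00709). HSP90AB1, the constitutive cytosolic HSP90, fell by 0.45 (adjusted p = 0.0195). HSP90AA1, CDC37 and CHORDC1 were the other 3. The count was 3 to 5 when 1 control array was left out, with medians of -0.49 to -0.44.

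Under Fk none of these 14 genes was called. At 12 h 6 of 14 were positive (median -0.04), and at 48 h 1 of 14 (median -0.11), where a difference of -0.47 for CHORDC1 had the smallest p (adjusted p = 0.976). HSP90AA1 read 14.11, 14.32 and 14.47 on control and 13.80, 14.14 and 14.28 on Fk arrays at 48 h.

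Of 12 genes listed for the glucocorticoid receptor and its classical targets other than FKBP5, 8 were tested. Between control times 1 rose and 2 fell: TSC22D3, which encodes the glucocorticoid-induced leucine zipper, rose by 1.73 (adjusted p = 0.00897), the kinase gene SGK1 fell by 2.04 (adjusted p = 0.0448) and the metallothionein gene MT2A fell by 0.98 (adjusted p = 0.0498). The count that fell was 0 without any 1 of the control arrays other than replicate 3 at 48 h, and 0 without Fk replicate 2 at 48 h. With Fk none was called. At 12 h 7 of 8 differences were negative (median -0.35), and without Fk replicate 3 5 of 8 (median -0.17). TSC22D3 was positive in both, at 1.12 ± 0.36 (unadjusted p = 0.00996, adjusted p = 0.654). It read 8.08, 7.88 and 8.25 on control arrays and 8.96, 8.56 and, on replicate 3, 10.05 on Fk arrays, and the difference without replicate 3 was 0.69 (adjusted p = 0.581). SGK1 read 12.88, 12.96 and 13.31 on control arrays and 12.54, 12.65 and, on replicate 3, 10.09 on Fk arrays, a difference of -1.29 (adjusted p = 0.759), and of -0.45 without replicate 3 (adjusted p = 0.902). At 48 h 5 of 8 were positive, with a median of 0.20.

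The ER members assist secreted and membrane proteins, and several are known from collagen folding. PPIB is the collagen-associated cyclophilin that works with CRTAP and P3H1. It read 12.40, 12.26 and 12.71 on control arrays at 12 h, 13.76, 13.17 and 12.63 at 48 h, and 12.80, 12.61 and 12.93, then 13.75, 13.40 and 12.55, on Fk arrays. Replicate 3 was the lowest of its group at 48 h in both arms, inside the range of the arrays at 12 h. The control difference between the times was 0.73 ± 0.33 (interval 0.01 to 1.46, adjusted p = 0.132). Without control replicate 3 at 48 h it was 1.01 (adjusted p = 0.0479), and without control replicate 1 at 48 h it was 0.45 and not called. Fk differed from control by 0.32 at 12 h (interval -0.40 to 1.05, adjusted p = 0.857) and by 0.04 at 48 h (interval -0.68 to 0.76).

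FKBP14, an ER FKBP tied to a kyphoscoliotic form of Ehlers-Danlos syndrome, had the same order of replicates. It read 9.37, 8.82 and 7.67 on control and 9.43, 8.76 and 7.64 on Fk arrays at 48 h, against 7.86, 7.08 and 7.76 and 7.92, 7.36 and 6.91 at 12 h. The control difference was 1.05 ± 0.51 (adjusted p = 0.165), 1.53 without control replicate 3 at 48 h (adjusted p = 0.0496), and 0.68, not called, without control replicate 1 at 48 h. The other 2 probe sets gave 1.15 and 1.25. Between the 48 h groups it differed by -0.01, with the widest interval of the 28 genes, -1.15 to 1.12.

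The direction of the difference between replicates 1 and 3 was shared between the arms, though not between all genes. Of the ER members, FKBP9 alone ran the other way from PPIB and FKBP14, at -0.47 in control and -0.48 in Fk arrays. At 48 h, replicate 1 minus replicate 3 had the same sign in the control and the Fk arm for all 8 ER members and for 25 of 28 immunophilin genes (89.3%), against 75.2% of all genes tested. The median range of the ER members within the 48 h groups was 0.56 in control and 0.64 in Fk arrays, while their median absolute Fk difference was 0.06. Whether same-numbered cultures shared a day or a batch is not given in the sources used here, and its part in the results was not tested.

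FKBP10 was the ER member with the smallest p for Fk at 48 h and for the averaged effect. It encodes a collagen chaperone whose loss causes a brittle bone disease. Control arrays read 5.30, 5.33 and 4.93 at 12 h and Fk arrays 5.73, 5.56 and 5.42, all above them. At 48 h control arrays read 5.99, 5.53 and 5.53 and Fk arrays 6.38, 6.25 and 5.84, of which replicate 3 lay inside the control range. The differences were 0.39 ± 0.19 at 12 h (interval -0.03 to 0.80, adjusted p = 0.759) and 0.47 ± 0.19 at 48 h (interval 0.06 to 0.89, unadjusted p = 0.0299, adjusted p = 0.904). Averaged over the times the difference was 0.43 ± 0.13 (interval 0.13 to 0.73, unadjusted p = 0.00873, adjusted p = 0.422), positive without each array in turn (0.37 to 0.51). Control arrays differed between the times by 0.50 (adjusted p = 0.0851) and Fk arrays by 0.59, neither with overlap. No second probe set reads this gene.

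FKBP7, an ER FKBP that binds the chaperone HSPA5, had the largest Fk difference of the 28 genes at 12 h. It read 6.23, 6.06 and 6.44 on control arrays and 6.22, 6.81 and, on replicate 3, 7.80 on Fk arrays. The difference was 0.70 ± 0.33 (interval -0.02 to 1.43, adjusted p = 0.759), and 0.27 without replicate 3 (adjusted p = 0.871). At 48 h it read 6.90, 6.26 and 6.58 on control and 6.82, 6.89 and 6.65 on Fk arrays, a difference of 0.21.

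FKBP11, an FKBP of secretory cells, read 8.01, 8.32 and 7.85 on control and 8.10, 8.45 and 7.84 on Fk arrays at 12 h, and 7.66, 7.56 and 7.27 against 7.91, 8.04 and 7.03 at 48 h. Control arrays at 48 h all lay below those at 12 h, by -0.57 ± 0.27 (adjusted p = 0.151). Fk differences were 0.07 (interval -0.51 to 0.66, adjusted p = 0.975) and 0.16 (interval -0.42 to 0.75). Its second probe set above background disagreed at 12 h, where it gave -0.52 for Fk, and gave -1.02 between control times (adjusted p = 0.0479 where it stood for the gene).

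PPIC, an ER cyclophilin, read 10.44, 10.44 and 10.66 on control and 10.70, 10.72 and 10.70 on Fk arrays at 12 h, a difference of 0.19 ± 0.13 (interval -0.11 to 0.49, adjusted p = 0.8). At 48 h it read 11.05, 10.71 and 10.87 against 11.15, 10.86 and 10.77, and the control arrays differed between the times by 0.36 (adjusted p = 0.0804). FKBP2 and FKBP9 gave Fk differences of -0.24 and -0.12 at 12 h and of -0.02 and -0.07 at 48 h. Over time in control cultures, 6 of 8 ER members were positive (51.5% of all genes) with a median of 0.35, 0 of 8 were called, and FKBP9 and FKBP11 were the 2 below 0.

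The general ER chaperones were measured beside them. All 13 of 13 listed chaperones and disulfide isomerases were positive between control times, with a median of 1.39, and 1 rose past the threshold, against 10.6% of all genes. That gene was HSPA5, the ER HSP70 that senses unfolded proteins, which rose by 1.56 (adjusted p = 0.0134). It read 14.03, 13.22 and 13.80 at 12 h and 15.63, 15.56 and 14.54 at 48 h in control cultures, without overlap, and 14.47, 13.96 and 13.98, then 15.59, 15.50 and 14.62, in Fk cultures. Leaving out control replicate 3 at 48 h gave 7 called and a median of 1.91, and leaving out replicate 1 at 48 h gave 0 called and 0.75. Leaving out control replicate 2 at 12 h or at 48 h also gave 0 called. Under Fk 12 of 13 were positive at 12 h (median 0.19) and 7 of 13 at 48 h (median 0.03), none called.

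Promoter sequences were compared between these chaperones and the immunophilin genes. The ER stress element, CCAAT and CCACG with any 9 bases between them, through which the unfolded protein response acts, was searched on both strands in the 250 bases before each gene's start in RefSeq (GRCh38.p14), where 24 of the 31 immunophilin genes had an entry. It was found for 6 of 12 chaperone genes (HSPA5, HSP90B1, CALR, CANX, PDIA6 and CRELD2). For the 24 immunophilin genes, 6 of them ER members, the count was 0, against 0.0916% of 27305 genes with a window. The sites of the HSPA5 and HSP90B1 windows are shown because these were the chaperones with the smallest p over time, with the ends of the element in capitals, each read 5′ to 3′ on the strand given. The PPIB window is shown as that of an ER cyclophilin without the element. It holds a CCAAT box (capitals) at -202 to -198 from the start. CCAAT makes up the first letters of the ER stress element. It was found for 14 of 24 immunophilin genes, for 12 of 12 chaperone genes and for 37.0% of the 27305 genes with a window.
HSPA5, chr9:125241391-125241409, minus strand: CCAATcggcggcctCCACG
HSP90B1, chr12:103930216-103930234, plus strand: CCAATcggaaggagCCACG
HSP90B1, chr12:103930321-103930339, minus strand: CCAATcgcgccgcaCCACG
PPIB, chr15:64163023-64163272, minus strand: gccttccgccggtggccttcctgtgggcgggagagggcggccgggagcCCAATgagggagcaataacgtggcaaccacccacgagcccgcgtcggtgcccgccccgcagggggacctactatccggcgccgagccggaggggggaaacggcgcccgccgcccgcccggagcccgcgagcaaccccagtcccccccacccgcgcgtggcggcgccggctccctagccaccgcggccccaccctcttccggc

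A match or its absence describes these letters in this window only. The heat shock element, here GAA, TTC and GAA with any 2 bases between neighbours, was found for 4 of 14 HSP90 system genes (HSP90AA1, HSP90AB1, HSPA8 and CHORDC1). It was found for 0 of 24 immunophilin genes, against 0.557% of the 27305 genes with a window. The glucocorticoid element, here AGAACA and TGTTCT with any 3 bases between them, was in 1 window of all and for 0 of 24 genes. FKBP4, FKBP8, FKBP10, FKBP14, FKBPL, PPIE and PPIG had no window in the promoter set used, so their promoters were not searched.

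Collagen folding partners of the ER members differed upward with Fk at 48 h without a call. Of 13 listed, 12 were tested, and 12 of 12 differences were positive with a median of 0.14, against 53.8% positive and a median of 0.02 over all genes. The list was chosen with earlier results of these data known, so its shares beside those of all genes do not test it. P4HA2 and P4HA1, catalytic subunits of collagen prolyl hydroxylase, differed by 0.86 ± 0.18 (adjusted p = 0.382) and 0.82 ± 0.21 (adjusted p = 0.568). On control arrays P4HA2 read 10.68, 10.18 and 10.34 and on Fk arrays 11.50, 11.15 and 11.14, and 4 of the 12 genes showed such a gap, 33.3% against 6.14% of all genes. P3H3 differed by 0.42 and CRTAP, the partner of PPIB, by 0.34. At 12 h 10 of 12 were positive with a median of 0.07. Between control times PLOD2, a lysyl hydroxylase, rose by 0.75 (adjusted p = 0.0133) and COLGALT1, a collagen galactosyltransferase, fell by 0.68 (adjusted p = 0.0185). Of these, 0 rose without control replicate 1 at 12 h, and 0 fell without any 1 of the control arrays at 12 h or without control replicate 1 at 48 h.

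PPIF, cyclophilin D of the mitochondrial matrix, regulates the permeability transition pore. It read 12.49, 12.19 and 12.45 on control and 12.41, 11.99 and 12.28 on Fk arrays at 12 h, and 11.42, 11.85 and 12.24 against 11.44, 12.00 and 12.13 at 48 h. In both arms replicate 1 was the lowest at 48 h. The Fk differences were -0.15 ± 0.24 (interval -0.67 to 0.37, adjusted p = 0.918) and 0.02 (interval -0.50 to 0.54). Between control times it differed by -0.54 ± 0.24 (interval -1.06 to -0.02, adjusted p = 0.124), by -0.74 without control replicate 3 at 48 h (adjusted p = 0.0446), and by -0.33, not called, without control replicate 1 at 48 h. A second probe set gave -0.64.

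Of 10 genes listed as channel, carrier and kinase partners of the pore, 9 were tested. VDAC3 fell by 0.73 (adjusted p = 0.0146) and VDAC1 by 0.59 (adjusted p = 0.016) between control times, both channels of the outer membrane. The count that fell was 0 without control replicate 1 or 2 at 48 h, 1 without control replicate 2 or 3 at 12 h and 3 without control replicate 3 at 48 h. With Fk none was called, 3 of 9 were positive at 12 h and 5 of 9 at 48 h, and HK2, the hexokinase that docks on these channels, differed by 0.68 at 48 h (adjusted p = 0.976).

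Among the nuclear and spliceosomal cyclophilins, PPIH was the 1 called. It belongs to the tri-snRNP particle of the spliceosome. Control arrays read 10.50, 10.80 and 10.60 at 12 h and 9.61, 9.51 and 10.27 at 48 h, without overlap, and Fk arrays read 10.13, 10.28 and 10.75, then 9.64, 9.97 and 10.47, with overlap. In control cultures PPIH fell by 0.83 ± 0.26 (interval -1.41 to -0.26, adjusted p = 0.0442), and its linear signal fell by 43.8%. The Fk arm differed by -0.36.

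The call for PPIH was narrow. It was lost without any 1 of 8 arrays, among them each control array at 12 h and control replicates 1 and 2 at 48 h, with an adjusted p of up to 0.150. It stood without control replicate 3 at 48 h, at -1.07. With all arrays, it was also lost in limma with no filter on low values (adjusted p = 0.0979) and with quantile normalization (adjusted p = 0.0534). With the mean of the PPIH probe sets it was lost too (adjusted p = 0.0612). Fk differences were -0.24 at 12 h (interval -0.82 to 0.33, adjusted p = 0.869) and 0.23 at 48 h (interval -0.35 to 0.80). Without Fk replicate 3 the difference at 12 h was -0.42.

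The PPIH window is shown as the promoter of the cyclophilin that was called. It holds the E-box CACGTG (capitals), a palindrome read alike on both strands, at -239 to -234 from the start. The E-box was found for FKBP5 and PPIH of 24 immunophilin genes and for 7.73% of the 27305 genes with a window.
PPIH, chr1:42658173-42658422, plus strand: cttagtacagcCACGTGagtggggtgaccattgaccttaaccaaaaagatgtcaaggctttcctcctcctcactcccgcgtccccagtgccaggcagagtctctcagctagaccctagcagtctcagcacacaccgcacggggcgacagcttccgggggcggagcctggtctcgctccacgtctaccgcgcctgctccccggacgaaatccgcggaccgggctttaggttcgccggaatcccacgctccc

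NKTR had the same order of arrays by time as FKBP4. It read 9.59, 9.39 and 9.67 on control and 9.29, 9.21 and 10.51 on Fk arrays at 12 h, and 9.11, 9.09 and 9.12 against 9.08, 8.97 and 9.15 at 48 h, so all 6 arrays at 48 h lay below all 6 at 12 h. The control difference was -0.44 ± 0.28 (adjusted p = 0.281), and the same difference had an adjusted p of 0.0107 once Fk replicate 3 at 12 h was left out. With Fk it differed by 0.12 at 12 h, and by -0.30 without that replicate (interval -0.55 to -0.05, adjusted p = 0.551). Other NKTR probe sets above background (means 8.52 and 7.50) gave -0.50 and -0.40 between control times, and 0.28 and -0.20 for Fk at 12 h. In the Fk arm the dimmer of them had means of 7.49 at 12 h and 7.54 at 48 h, so it was not lower at 48 h there.

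The other nuclear members ran both ways. PPIL3 and PPIL4, spliceosomal cyclophilins of which PPIL4 carries an RNA recognition motif, differed with Fk by 0.39 and 0.27 at 12 h and by 0.04 and -0.22 at 48 h. Without Fk replicate 3, PPIL3 differed by 0.01 at 12 h. PPIL4 at 12 h read 9.20, 9.28 and 9.26 on control and 9.39, 9.48 and 9.67 on Fk arrays, and at 48 h 9.89, 10.10 and 9.06 against 9.65, 9.32 and 9.43. The difference between its effects was -0.49 (adjusted p = 0.996). CWC27, a spliceosomal cyclophilin, differed by -0.10 at 12 h and by -0.29 without replicate 3. PPIE differed by 0.50 between control times (adjusted p = 0.109), PPIL3 by 0.54 (adjusted p = 0.215) and PPIL4 by 0.44. PPIG, PPIL1, PPIL2 and PPWD1 differed there by -0.32 to 0.10. A dimmer probe set of PPIG (mean 7.57) gave -0.85 for Fk at 12 h, against -0.10 for the brightest. Over the 10 genes, 5 were positive and 5 negative, with a median of 0.02.

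FKBP3, a nuclear FKBP, and FKBP15, an FKBP of the endosomal and actin machinery, had narrow Fk intervals. FKBP3 had means of 11.83, 11.83, 11.72 and 11.69 in control and Fk cultures at 12 h and then at 48 h, and its Fk intervals ran from -0.22 to 0.22 and from -0.24 to 0.19. FKBP15 had means of 9.03, 8.93, 9.13 and 9.08 in the same order, with intervals from -0.37 to 0.17 and from -0.32 to 0.22. These intervals hold for the brightest probe set. A dimmer probe set of FKBP15 (mean 5.74) gave Fk differences of 0.16 at 12 h and -0.39 at 48 h, the latter outside the interval. Another (mean 8.59) gave -0.10 and -0.05. Of the parvulins, the remaining family of prolyl isomerases, 1 was tested: PIN4 fell by 0.88 between control times (adjusted p = 0.00308) and differed with Fk by -0.24 and 0.12. The PIN4 call held without each array in turn.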

How the data were processed

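RNA of HK-2 cells was measured on 12 Affymetrix arrays, 3 in each of 4 groups taken from the labels. The deposited table holds log2 GCRMA values for 54675 probe sets; GCRMA is named in the submitters' processing notes, its version and the arrays normalized together are not given in the sources used here, and the log2 scale follows from the values. GCRMA pulls dim probe sets toward a floor, which shrinks the differences of low genes. Symbols came from the platform annotation, updated to RefSeq (GRCh38.p14): 41097 probe sets had 1 symbol, 1801 several and 11777 none. Each gene took its brightest probe set with 1 symbol and was tested if this reached 4 on at least 3 arrays (10784 of 19775 genes).

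Group means were fitted to the 12 arrays together in limma 3.58.1 (R 4.3.3), and eBayes moderated the spread (residual degrees of freedom 8, prior 2.44). Tests are two-sided; p-values were adjusted by the Benjamini-Hochberg method across the whole table, the threshold was 0.05, and intervals are at 95%. "Called" means past this threshold. The test was checked on simulated data. Precision is limited by having 3 arrays a group. The genes and all lists were chosen with earlier results of these data known, so a share set beside that of all genes does not test a list. Named genes were FKBP1A, PPIA, FKBP5, FKBP4, PPIB, PPIF, FKBP10 and FKBP11, and every immunophilin gene called. Where none was called in a comparison, the 3 with the smallest p were named. Of each other list, up to 4 genes were named. FKBP14, NKTR, PPIL3 and CWC27 were added after their values were seen. FKBP3, FKBP15 and the remaining members also fall outside this rule and are given more briefly. In all, 22 other settings were tried: 12 left out an array, and 10 changed the filter, the probe set, the normalization, the moderation, array weights, the arrays in the fit or a replicate block. Python 3.11.15 with pandas 2.3.3 and matplotlib 3.10.9 made the figures.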

Additional observations from a re-analysis of the deposited data

How the results depend on the processing

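Over 22 other settings, 666 of 716 values of named immunophilin genes kept their direction and their side of the threshold. Fk left 0 of 28 immunophilin genes called at 12 h and at 48 h under every setting tried. All genes called for Fk at 48 h numbered 1 with no filter on low values, 4 with the mean of a gene's probe sets, 1 with only the groups compared and 94 with array weights; at 12 h they numbered 156 with array weights. For the averaged Fk effect 0 genes were called with no filter or with trend and robust moderation, 2 with the mean of probe sets and 527 with array weights, among them 1 immunophilin gene, FKBP10 (0.52, adjusted p = 0.0237). These weights gave Fk replicate 3 at 12 h a weight of 0.121. Between control times, 1539 genes were called without probe sets ending in _s_at, _x_at or _a_at, among them 2 immunophilin genes. All genes called numbered 1631 with no filter and 2297 with quantile normalization, each with 1 immunophilin gene. With only the groups compared, 3125 of 10784 genes were called, and 6 of 28 immunophilin genes. With array weights these counts were 4920 of 10784 and 17 of 28. The cause was not tested.

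Leaving out 1 array gave 0 to 3 genes called at 12 h, 0 to 1 at 48 h, 0 to 2 for the averaged effect and 1060 to 3438 between control times, where 1 to 6 immunophilin genes were called: 6 without control replicate 3 at 48 h (FKBP4, FKBP14, PPIB, PPIF, PPIH, PPIL4) and 6 without Fk replicate 3 at 12 h (FKBP4, FKBP5, NKTR, PPIE, PPIH, PPIL3).

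Signs turned for uncalled values alone. At 12 h the mean of probe sets gave 0.000279 for PPIA, 0.0042 for FKBP4 and -0.13 for FKBP11, which was -0.52 without the probe set endings above; at 48 h FKBP5 was 0.0187 with the mean of probe sets and 0.00514 with median centring. Leaving out 1 array gave -0.086 to 0.22 for FKBP11, -0.14 to 0.0606 for FKBP4 and -0.17 to 0.0711 for FKBP5 at 12 h. At 48 h it gave -0.03 to 0.48 for FKBP11, -0.0308 to 0.15 for FKBP1A, -0.13 to 0.10 for FKBP5, -0.10 to 0.0169 for PPIA, -0.24 to 0.38 for PPIB and -0.19 to 0.22 for PPIF.

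With the replicate number as a block within time, 1 gene was called for Fk at 12 h, 0 at 48 h and 0 for the averaged effect, and 0 immunophilin genes in each. The block gave a smaller SE of the Fk difference for FKBP1A, PPIA, FKBP5, FKBP4, PPIB, PPIF, FKBP10 and FKBP11. For PPIB it was 0.10 against 0.33 in the main fit, and for FKBP10 0.12 against 0.19. In limma with the block, FKBP10 at 48 h had an unadjusted p of 0.00645 (adjusted p = 0.344). In the control arrays alone the block gave 2287 genes and 3 immunophilin genes called between times; PPIH had an adjusted p of 0.0589 and FKBP11 of 0.0485. Deviations of same-numbered Fk and control arrays correlated at 0.041, 0.265 and 0.163 at 12 h and 0.798, -0.025 and 0.606 at 48 h. The numbers were not used to pair the arrays in the main fit because the labels do not say that they pair cultures. Replicates 1 and 3 did deviate together between the arms at 48 h, and these correlations do not settle whether the arrays were paired.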
